A study of Homo sapiens with 4 samples.

Results

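SPI1, CEBPA, CEBPB, CEBPD, CEBPE, GFI1, RUNX1, MYB and GATA2 are transcription factor genes that set the course of myeloid cells. They were taken by gene symbol from a deposited table of read counts, in which 9 of 9 were found among 56638 rows, and all 9 had enough reads to be tested. The RNA came from MV4;11 cells, a long-established line grown from an acute myeloid leukaemia and known for its KMT2A-AFF1 fusion and its FLT3 internal tandem duplication. Parental cells, with no modified genotype named, had been kept for 24 h with CU-T12-9 at 1 µg/mL (2 libraries) or with vehicle (2 libraries). CU-T12-9 is a synthetic compound that activates the paired receptors TLR1 and TLR2. The sample labels give the vehicle as DMSO and the treatment protocol gives PBS, and the vehicle libraries are called DMSO here. All 4 libraries are of 1 cell line, and no label states that paired libraries were grown as separate cultures. The p-values therefore cover the spread between these libraries alone, which may be technical.

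PU.1, the product of SPI1, and C/EBP alpha, the product of CEBPA, act together at the genes of monocytes and granulocytes, and a high PU.1 level favours the monocyte and macrophage course. C/EBP beta and C/EBP delta are raised in myeloid cells by inflammatory signals, while C/EBP epsilon drives the late granule genes of neutrophils. RUNX1 binds DNA with its partner CBFB and is needed to form blood stem cells, GFI1 is a repressor that favours granulocytes over monocytes, and MYB and GATA2 belong to immature, dividing progenitors. MYB is also needed by leukaemias with KMT2A fusions.

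The 9 genes changed by amounts usual for the genes tested. Under CU-T12-9 5 of them were higher (SPI1, CEBPA, CEBPD, RUNX1 and GFI1), 2 were lower (MYB and GATA2), and 2, CEBPB and CEBPE, did not pass the test (edgeR quasi-likelihood test, Benjamini-Hochberg adjusted p under 0.05). Over all 14018 genes tested, 65.2% passed, 32% being higher and 33.2% lower, so that a count of 7 in 9 lies near the share of all genes. The fold changes of the 7 called members ran from 1.15 for GFI1 to 1.59 for GATA2. In log2 the absolute changes of all 9 lay between 0.18 and 0.67, and the median absolute change over all genes was 0.44. Tested against a fold of 1.5 with edgeR's glmTreat, 0 of the 9 members passed and 0 had an unadjusted p under 0.05, while 24.6% of all genes passed. The median log2 fold change of the 9 members was 0.20, against 0.00097 over all genes. In 8 of the 9 the groups did not overlap, as in 82.2% of all genes tested.

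**Figure D1:**
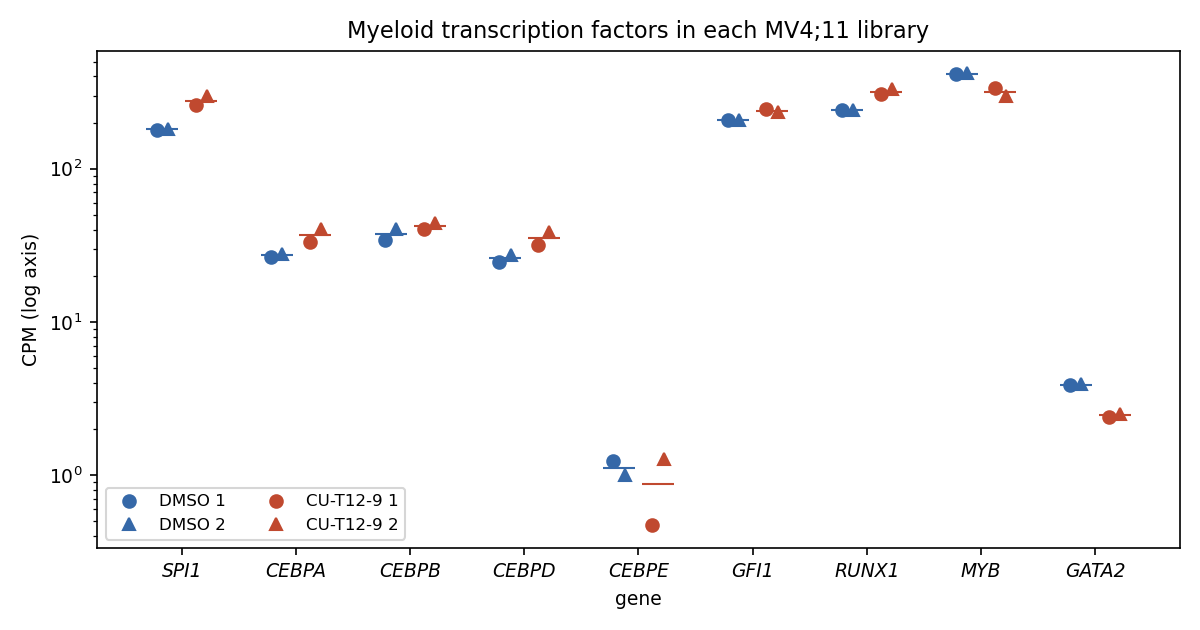
Level of the 9 genes in each library, in CPM (reads scaled to a common library size) on a log axis. Blue marks are DMSO and red marks CU-T12-9, circles are the first and triangles the second library of a group, and bars are group means of 2 libraries. SPI1, CEBPA, CEBPD, RUNX1 and GFI1 sit higher and MYB and GATA2 lower in both CU-T12-9 libraries, and only CEBPE overlaps between the groups.

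The start regions of 4 called members are shown, 2 from genes that rose (RUNX1 and GFI1) and 2 from genes that fell (MYB and GATA2). RefSeq start windows (GRCh38.p14) were matched for 7 of the 9 members, without SPI1 and CEBPD. Each sequence is the 250 bases before a RefSeq start, 5′ to 3′ on the strand of the gene, and none of the 4 windows holds an annotated exon of GENCODE release 29. GFI1 has 2 further starts in the table and GATA2 has 1 more. The windows of these 2 genes were shown because they hold motif matches, and the other exon-free windows, 1 of each gene, held none of the 6 motifs below. The GFI1 window left out for its 140 bases in exons held 1 PU.1 match, 30 bases before its start. The matched window of CEBPA, which also rose, is not shown. It had 30 bases in exons and held none of the 6 motifs below. Capitals mark the letters of 6 motifs searched on both strands. AGATAA was searched for GATA factors such as the product of GATA2, and GAGGAA for PU.1. The letters TGTGGT stand for RUNX factors and CAACTG for MYB. C/EBP factors were given as TTGCNNAA, and NF-kB, in a short form of its site, as GGGNNTTCC.
RUNX1, chr21:34888700-34888949, minus strand: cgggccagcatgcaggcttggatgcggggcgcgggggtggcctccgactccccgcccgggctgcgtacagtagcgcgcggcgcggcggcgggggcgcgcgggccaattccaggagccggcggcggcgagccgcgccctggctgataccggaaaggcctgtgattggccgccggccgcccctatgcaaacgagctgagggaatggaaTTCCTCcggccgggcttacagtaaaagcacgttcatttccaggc
GFI1, chr1:92486100-92486349, minus strand: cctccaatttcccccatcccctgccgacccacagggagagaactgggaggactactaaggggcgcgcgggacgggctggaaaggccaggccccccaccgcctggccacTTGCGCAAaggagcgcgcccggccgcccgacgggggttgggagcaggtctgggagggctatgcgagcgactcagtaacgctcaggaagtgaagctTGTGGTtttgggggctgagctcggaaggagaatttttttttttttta
MYB, chr6:135181058-135181307, plus strand: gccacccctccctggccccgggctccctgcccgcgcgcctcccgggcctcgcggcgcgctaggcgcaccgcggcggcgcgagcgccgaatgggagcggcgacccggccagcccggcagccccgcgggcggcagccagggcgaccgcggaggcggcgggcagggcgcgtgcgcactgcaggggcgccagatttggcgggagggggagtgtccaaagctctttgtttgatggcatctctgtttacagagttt
GATA2, chr3:128488531-128488780, minus strand: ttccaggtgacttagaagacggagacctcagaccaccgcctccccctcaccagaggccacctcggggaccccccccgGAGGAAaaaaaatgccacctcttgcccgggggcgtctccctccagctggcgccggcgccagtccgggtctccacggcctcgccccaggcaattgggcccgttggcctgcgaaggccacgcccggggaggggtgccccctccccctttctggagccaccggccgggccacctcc

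The RUNX1 window held 1 PU.1 match, on the opposite strand, 44 bases before the start. The GFI1 window held a RUNX match 47 bases and a C/EBP match 142 bases before the start. The GATA2 window held 1 PU.1 match 173 bases before the start, and the MYB window held none of the 6 motifs. Over all 35116 windows of the same length, 23.6% held the PU.1 letters, 11% the RUNX letters, 9.05% the C/EBP letters, 9.17% the GATA letters, 9% the MYB letters and 5.78% the NF-kB letters. These shares are of windows not chosen by their matches, unlike the windows shown for GFI1 and GATA2. The windows of MYB, RUNX1 and GATA2 were rich in G and C (75.6%, 71.2% and 71.2% of bases), as was that of GFI1 to a lesser extent (62.4%). Such matches describe the letters only, and binding was not measured.

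The 4 libraries held 23087102 to 25867733 reads, and 1 read was worth 0.0384 to 0.0442 CPM, so that a floor of 3 reads stood at 0.115 to 0.133 CPM. Floors and intervals of reads cover counting error only and leave out the spread between libraries. PCR copies were not told apart by molecular identifiers, so such intervals may be too narrow even for counting error. CPM here rests on library sizes scaled by TMM. Both pairs of libraries differed by more than sampling noise, the CU-T12-9 pair more so (chi-square per degree of freedom 6.99, against 2.42 for the DMSO pair). All 8 markers of myeloid blasts had enough reads to be tested, with a summed level of 2943 to 3030 CPM under DMSO and 2764 to 2925 CPM under CU-T12-9. Of these 8, 4 were called higher and 4 lower, against 32% and 33.2% of all genes. The sum therefore hides changes in both directions. LYZ, the bulk of the sum, fell from a mean of 2002 to 1276 CPM, and CD4 rose from 210 to 707 CPM. T cell markers summed to at most 0.115 CPM, and the 5 erythroid markers had no read in any library. B cell markers summed to 1.09 to 1.69 CPM under DMSO and 2.40 to 2.52 CPM under CU-T12-9, with MS4A1 at 0 reads under DMSO. PAX5 and CD22 rose among them, PAX5 by 1.03 on the log2 scale and CD22 from 3 to 39 reads. Less RNA per cell and fewer cells with that RNA cannot be told apart in such bulk libraries.

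SPI1, which encodes PU.1, showed the clearest rise of the 9. It stood at 179 and 182 CPM in the DMSO libraries and at 259 and 298 CPM in the CU-T12-9 libraries. Both CU-T12-9 libraries lay above both DMSO libraries, and the second was the higher. The mean went from 181 ± 1.66 to 279 ± 27 CPM (SD, n = 2 in each group), a 1.54-fold rise. On the log2 scale the rise was 0.63 (SE 0.07, edgeR Benjamini-Hochberg adjusted p = 3.52e-05), and 36.8% of all tested genes changed by more in either direction.

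CEBPA stood at 26.5 and 27.7 CPM under DMSO and at 33.2 and 40.5 CPM under CU-T12-9. The groups did not overlap, and the second CU-T12-9 library was again the higher. CEBPA rose by 0.44 on the log2 scale (SE 0.10, edgeR Benjamini-Hochberg adjusted p = 0.00314), a 1.36-fold rise. It was 0.29 without the second CU-T12-9 library and 0.61 without the first, and passed the test in both cases. The row CEBPA-AS1, a transcript named for its antisense position to CEBPA, had 166 and 144 reads in the DMSO libraries and 165 and 178 in the CU-T12-9 libraries, and was not called (log2 fold change 0.27, SE 0.13, edgeR adjusted p = 0.0993). How the counting treated strand is not known from the sources, so reads from overlapping parts of the 2 transcripts cannot be told apart.

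CEBPD had nearly the same pattern as CEBPA. It stood at 24.8 and 27.5 CPM under DMSO and at 31.9 and 38.5 CPM under CU-T12-9, with no overlap. CEBPD rose by 0.43 on the log2 scale (SE 0.10, edgeR Benjamini-Hochberg adjusted p = 0.00442), a 1.35-fold rise. CEBPA was the gene with the third most similar profile to CEBPD among 9893 genes compared, at a distance of 0.062 in centred log2 CPM over the 4 libraries.

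CEBPB, a factor known for its induction by inflammatory stimuli, was not called. It stood at 34.2 and 40.5 CPM under DMSO and at 40.6 and 44 CPM under CU-T12-9. The first CU-T12-9 library lay just above the second DMSO library, so the groups touched without overlapping. The log2 fold change was 0.18, with a 95% interval of -0.02 to 0.38 (edgeR Benjamini-Hochberg adjusted p = 0.101). The value rested on single libraries: without the first DMSO library it was 0.05 (edgeR adjusted p = 0.737). A call appeared without the second DMSO library (log2 fold change 0.30, adjusted p = 0.03 by edgeR) and without the first CU-T12-9 library (0.27 and, by edgeR, an adjusted p = 0.000107), in a range over all alternatives of 0.000107 to 1.

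CEBPE, the neutrophil granule factor, was thinly read, with 32 and 24 reads under DMSO and 11 and 29 reads under CU-T12-9. The CU-T12-9 libraries stood at 0.47 and 1.28 CPM, on either side of both DMSO libraries (1.23 and 1.00 CPM). The log2 fold change was -0.36 with a wide 95% interval of -1.32 to 0.60 (edgeR Benjamini-Hochberg adjusted p = 0.479). Its direction rested on the first CU-T12-9 library: without that library the log2 fold change was 0.23 (edgeR adjusted p = 0.61), and without the second it was -1.24 (edgeR adjusted p = 0.0189), in a range over all alternatives of 0.0189 to 1. A difference in CEBPE was thus not detectable at this depth with these 2 unlike libraries.

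RUNX1 stood at 240 and 241 CPM under DMSO and at 305 and 332 CPM under CU-T12-9. The DMSO libraries were nearly identical and the groups did not overlap. RUNX1 rose by 0.41 on the log2 scale (SE 0.05, edgeR Benjamini-Hochberg adjusted p = 0.000161), a 1.32-fold rise. CBFB, which encodes the partner that RUNX proteins need for stable DNA binding, moved the other way. It held 3263 and 2727 reads under DMSO and 1736 and 2123 reads under CU-T12-9, and fell by 0.51 on the log2 scale (SE 0.10, edgeR adjusted p = 0.00159). CBFB fell by 0.32 without the first CU-T12-9 library and by 0.69 without the second, and was called in both cases. The ratio of RUNX1 to CBFB reads within a library, which needs no scaling between libraries, was 1.92 and 2.11 under DMSO and 4.11 and 3.54 under CU-T12-9, a mean increase of 1.89-fold.

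GFI1, the repressor of monocyte genes, had the smallest change among the called members. It stood at 207 and 208 CPM under DMSO and at 245 and 233 CPM under CU-T12-9, without overlap. GFI1 rose by 0.20 on the log2 scale (SE 0.05, edgeR Benjamini-Hochberg adjusted p = 0.00589), a 1.15-fold rise. The call was lost without either DMSO library (edgeR adjusted p = 0.0995 without the first and 0.0897 without the second), in a range over all alternatives of 4.57e-08 to 1. A change of this size or more was seen in 75% of all tested genes.

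MYB was the most strongly read of the 9 genes under DMSO and fell. It stood at 415 and 419 CPM under DMSO and at 336 and 298 CPM under CU-T12-9, so that both treated libraries lay below both controls. MYB fell by 0.40 on the log2 scale (SE 0.06, edgeR Benjamini-Hochberg adjusted p = 0.000405), a 1.32-fold fall. The row MYB-AS1 had no read in any library.

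GATA2, a gene of stem cells, mast cells and megakaryocytes, was present at a low level and had the largest fold change of the called members. It held 101 and 94 reads under DMSO and 56 and 57 reads under CU-T12-9, or 3.88 and 3.93 CPM against 2.39 and 2.52 CPM. The libraries within a group were close and the groups did not overlap. The log2 fold change was -0.67 (SE 0.17, edgeR Benjamini-Hochberg adjusted p = 0.0082), a 1.59-fold fall. DESeq2 gave the same size but did not call it (log2 fold change -0.65, DESeq2 adjusted p = 0.0726), in a range over all alternatives of 0.00234 to 0.398.

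The 2 CU-T12-9 libraries differed from each other in the members too. SPI1, CEBPA, CEBPB, CEBPD, CEBPE, RUNX1 and GATA2 were each higher in the second than in the first, while MYB and GFI1 were lower there. For SPI1, CEBPA, CEBPD, RUNX1 and MYB the second library was the farther from DMSO, and for GFI1 and GATA2 the nearer. Without the first CU-T12-9 library the log2 fold changes were 0.75 for SPI1, 0.50 for RUNX1 and -0.45 for MYB, and without the second they were 0.52, 0.34 and -0.31.

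Per kilobase of annotated exon (GENCODE release 29, an annotation that need not be the one counted), MYB and SPI1 were the most abundant of the 9 under DMSO, at 89.7 ± 0.69 and 87.3 ± 0.80 CPM per kilobase (SD, n = 2). GFI1 followed at 67.7 ± 0.17 and RUNX1 at 29.2 ± 0.016 CPM per kilobase. CEBPB at 19.1 ± 2.28, CEBPD at 12 ± 0.88 and CEBPA at 10.3 ± 0.32 CPM per kilobase formed a lower tier, with GATA2 at 1.04 ± 0.009 and CEBPE at 0.72 ± 0.10 CPM per kilobase at the bottom. MYB and SPI1 lay close together under DMSO (89.2 and 90.2 against 86.7 and 87.9 CPM per kilobase). Under CU-T12-9 SPI1 led with 135 ± 13.1 CPM per kilobase, followed by GFI1 at 78 ± 2.75 and MYB at 68.2 ± 5.73 CPM per kilobase. CEBPD and CEBPA overlapped under CU-T12-9 (14.7 and 17.7 against 12.6 and 15.4 CPM per kilobase), as did CEBPE and GATA2 (0.30 and 0.82 against 0.64 and 0.67 CPM per kilobase).

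Because a rise in SPI1 came with falls in MYB and GATA2, their balance moved by more than any 1 of them. The ratio of SPI1 to GATA2 reads within a library was 46.3 in both DMSO libraries and 108 and 118 in the CU-T12-9 libraries, a 2.44-fold mean increase. The ratio of SPI1 to MYB reads was 0.433 and 0.434 in the DMSO libraries and 0.773 and 0.999 in the CU-T12-9 libraries, a 2.03-fold increase. PU.1 and GATA factors are known to oppose each other at blood cell genes. The ratio of CEBPA to SPI1 reads moved little, from 0.148 and 0.153 to 0.128 and 0.136, a mean 1.14-fold decrease, and that of CEBPB to CEBPA reads went from 1.29 and 1.46 to 1.22 and 1.09. These pairs were chosen with the results known and carry no test.

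**Figure D2:**
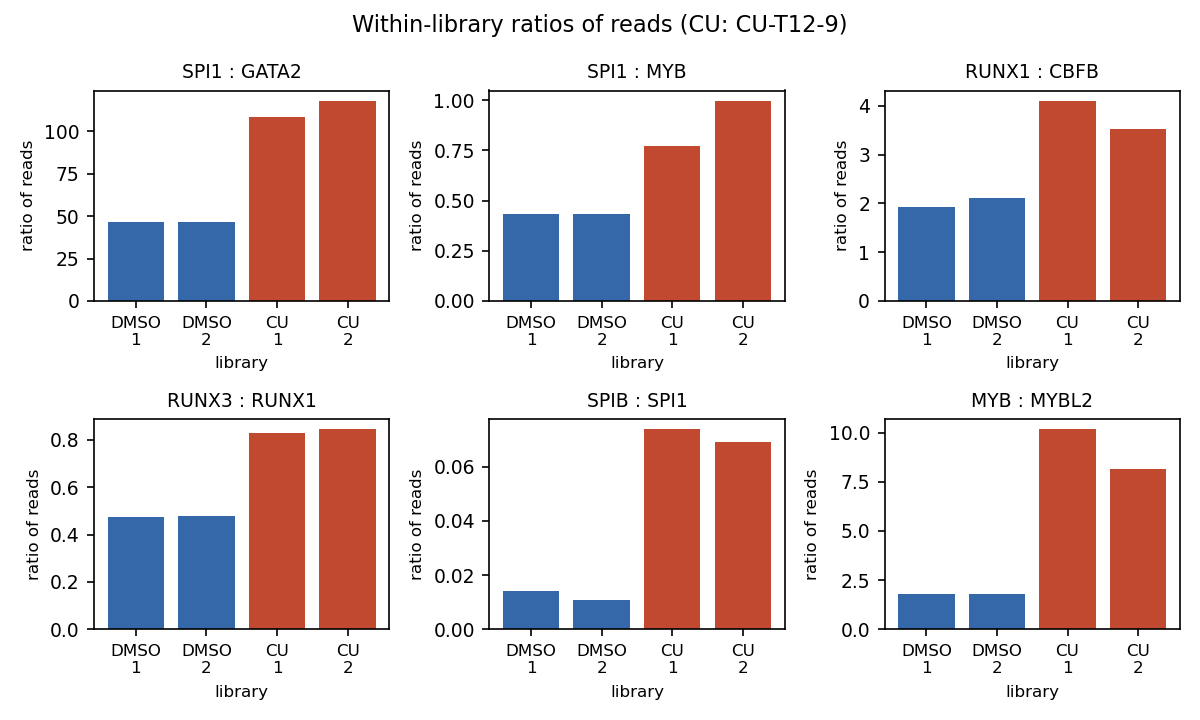
Ratios of reads of 6 gene pairs within each library; bars start at 0, blue is DMSO and red CU-T12-9 (CU), and each bar is 1 library. All 6 ratios separate the groups, from a 1.76-fold increase for RUNX3 to RUNX1 to a 5.74-fold increase for SPIB to SPI1. The 6 pairs were chosen with the results known, so their separation is no test.

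Some relatives of these factors changed by more than the 9 genes themselves. Of 14 family members outside the 9, 7 had enough reads to be tested. Among these 3 rose and 3 fell, against 32% and 33.2% of all genes, and the median change of the 7 was 0.008 in log2. SPIB, the closest relative of SPI1 and a factor of B cells and plasmacytoid dendritic cells, held 67 and 47 reads under DMSO and 448 and 465 reads under CU-T12-9. Its log2 fold change was 3.12 (SE 0.14), an 8.7-fold rise, against 1.54-fold for SPI1. SPIB remained the lesser of the 2, with a ratio to SPI1 reads of 0.0143 and 0.0108 under DMSO and 0.0738 and 0.0691 under CU-T12-9. SPIC had no read in any library.

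RUNX3, which in the myeloid lineage is known from dendritic cells, counted 2963 and 2746 reads in the DMSO libraries and 5903 and 6341 in the CU-T12-9 libraries (log2 fold change 1.22, SE 0.06, a 2.33-fold rise). Per kilobase of exon it went from 26.2 ± 0.15 to 61 ± 4.51 CPM, below RUNX1 (29.2 CPM per kilobase) under DMSO and above it (38.7 CPM per kilobase) under CU-T12-9. That order rests on annotated exon lengths of 4365 bases for RUNX3 and 8234 for RUNX1. In reads RUNX3 stayed below RUNX1 in every library, with ratios of 0.473 and 0.477 under DMSO and 0.827 and 0.845 under CU-T12-9. RUNX2 rose by 0.18 on the log2 scale (SE 0.06), a call that was lost under DESeq2 (adjusted p = 0.0662), with total-count scaling (edgeR adjusted p = 0.0521) and without either DMSO library (edgeR adjusted p = 0.162 and 0.223). Over all alternatives its adjusted p ran from 2.93e-05 to 1.

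All 3 genes of the MYB family fell, MYBL2 and MYBL1 by more than MYB, a difference between genes that was not tested. MYBL2, a factor of dividing cells that drives genes of mitosis, counted 5923 and 5594 reads in the DMSO libraries and 771 and 827 in the CU-T12-9 libraries, a 6.63-fold fall (log2 fold change -2.73, SE 0.06). MYBL1 held 184 and 159 reads against 46 and 42, a 3.58-fold fall (log2 fold change -1.84, SE 0.17). The ratio of MYB to MYBL2 reads accordingly went from 1.82 and 1.80 to 10.2 and 8.15. Among C/EBP relatives, CEBPG was not called (log2 fold change 0.01, 95% interval -0.12 to 0.14) and DDIT3, which encodes the stress factor CHOP, fell by 0.50 on the log2 scale (SE 0.12). GATA1, GATA3 and GFI1B, the erythroid and lymphoid relatives, had no read in any library.

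**Figure D3:**
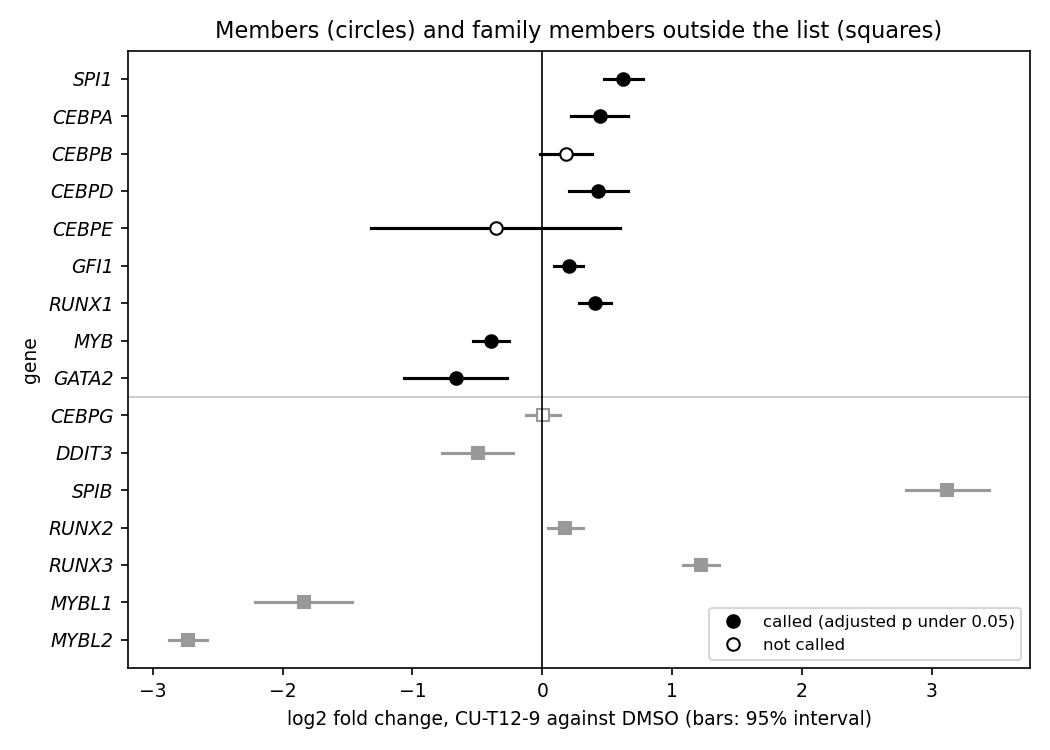
Log2 fold change of the 9 members (black circles) and their tested relatives (grey squares), CU-T12-9 against DMSO, with 95% intervals from the edgeR fit; open marks were not called. All 9 members lie between -0.67 and 0.63, while SPIB reaches 3.12 and MYBL2 -2.73.

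Partners and cofactors of the 9 factors went both ways, with 9 of 17 tested genes (20 listed) higher, 4 lower and a median of 0.24 in log2. Over all genes tested, 32% were higher and 33.2% lower. JUN, which pairs with C/EBP factors and acts with PU.1, rose by 1.59 on the log2 scale (SE 0.15), from 3.96 ± 0.53 to 12 ± 1.60 CPM. The corepressor gene TLE3 rose by 1.00 (SE 0.05), and CREBBP, a coactivator of MYB and C/EBP factors, by 0.83 (SE 0.05). Those that fell were CBFB (-0.51), HDAC2 (-0.51), HDAC1 (-0.20) and KDM1A (-0.49), the last 3 being parts of the corepressor complexes that GFI1 recruits. RCOR1, the CoREST part of such a complex, was higher (0.19, SE 0.05), and SIN3A was not called (0.07, 95% interval -0.06 to 0.20).

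Of 18 tested factors of monocyte, macrophage and dendritic cell fate (20 listed), 9 rose and 5 fell, against 32% and 33.2% of all genes. The median of the list was 0.16. EGR2, which promotes macrophage genes and opposes GFI1, went from 4 and 1 reads to 49 and 55 reads (log2 fold change 4.43, SE 0.44). RELB, an NF-kB subunit needed for dendritic cells, rose by 4.10 (SE 0.09). BATF3, a factor of classical type 1 dendritic cells, fell by 1.95 (SE 0.37), from 45 and 60 reads to 17 and 8. NR4A1 and KLF4, both linked to monocytes, fell by 1.05 and 0.95 from low means of 1.91 and 2.48 CPM under DMSO, and neither was called by DESeq2 (adjusted p = 0.0724 and 0.062). KLF4 was not called without the first DMSO library, nor NR4A1 without the second DMSO or the first CU-T12-9 library (edgeR adjusted p = 0.245, 0.0518 and 0.108). The log2 fold change of KLF4 was -0.56 without the first DMSO library, and that of NR4A1 was -0.59 without the first and -1.66 without the second CU-T12-9 library. Over all alternatives the adjusted p ran from 0.000445 to 0.245 for KLF4 and from 7.15e-05 to 0.133 for NR4A1. IRF8, which had the most reads of the list under DMSO and encodes a partner of PU.1, fell by 0.36 on the log2 scale (SE 0.05), and its ratio to GFI1 reads went from 2.81 and 2.97 to 1.88 and 2.05.

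Among other factors of stem and progenitor cells 6 of 15 tested (21 listed) rose and 6 fell, against 32% and 33.2% of all genes. The median of the list was -0.45. ID1, an inhibitor of helix-loop-helix factors, fell by 3.07 (SE 0.29), from 75 and 64 reads to 7 and 8. ZBTB16 fell by 2.46 (SE 0.20) and BCL11A by 0.91 (SE 0.12). ETV6, an ETS-family repressor, SOX4 and HOXA10 rose by 0.89, 0.81 and 0.48 on the log2 scale (SE 0.05, 0.10 and 0.06). TAL1 and ERG, which work with GATA2 and RUNX1 in stem cells, had at most 10 reads in any library and were not tested.

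**Figure D4:**
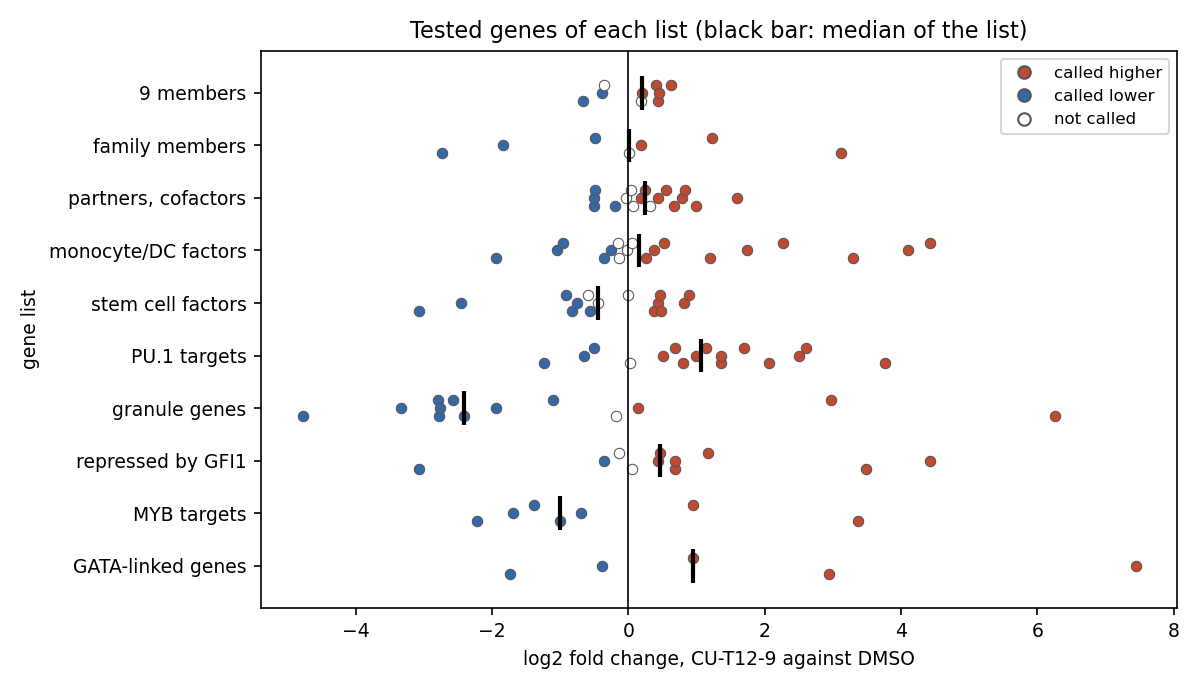
Log2 fold change of every tested gene of the 10 lists, 1 point per gene, red called higher, blue called lower and white not called; black bars are list medians. The 9 members lie within 0.67 of 0, while the tested genes of the other lists run from -4.78 (MPO, a granule gene) to 7.44 (GP1BA, a platelet gene with 1 read under DMSO).

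Genes known as targets of these factors included larger changes than the factors themselves showed. Of 16 tested PU.1 targets (18 listed), 12 rose and 3 fell (median 1.07 in log2), against 32% and 33.2% of all genes. CYBB, the catalytic subunit of the phagocyte oxidase, went from 25 and 4 reads to 181 and 184 (log2 fold change 3.77, SE 0.37). Its DMSO libraries were unlike, at 0.96 and 0.17 CPM, so the size of that rise depends on which of them is used. CSF2RA, the alpha chain of the GM-CSF receptor, rose by 2.50 (SE 0.05). The 3 that fell were FCGR1A, a high-affinity Fc receptor (-1.25, SE 0.08), lysozyme, LYZ (-0.65, SE 0.06), and CSF3R, the G-CSF receptor of granulocytes (-0.50, SE 0.07). CD14 was not tested, with 1 read in each DMSO library and 8 and 9 in the CU-T12-9 libraries.

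Granule genes of granulocytes, known as targets of C/EBP factors and in part of RUNX1 and MYB, mostly fell: 9 of 13 tested (22 listed) were lower and 3 higher, with a median of -2.42. Over all genes tested, 33.2% were lower and 32% higher. MPO, the myeloperoxidase gene, went from 150 and 155 reads to 5 and 5 (log2 fold change -4.78, SE 0.27). RNASE3 and ELANE fell by 3.34 and 2.80 on the log2 scale (SE 0.18 and 0.08). The members that rose were MMP9, a gelatinase, from 1 and 3 reads to 141 and 158, and CHI3L1, a secreted glycoprotein also made by macrophages, from 5463 and 5762 reads to 41726 and 39744 (log2 fold change 2.98, SE 0.07), and AZU1, by 0.14 on the log2 scale. AZU1 lost its call in DESeq2 (adjusted p = 0.0578), with RLE scaling (edgeR adjusted p = 0.0511) and without either DMSO library (edgeR adjusted p = 0.234 and 0.332), in a range of 2.53e-06 to 1, and its value was 0.21 without the first CU-T12-9 library. LTF, LCN2, CAMP and MMP8, the late granule genes that C/EBP epsilon drives, had at most 3 reads in any library.

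Over all genes 32% rose and 33.2% fell, beside which the counts of this paragraph stand. Of 11 tested genes known as repressed by GFI1 (12 listed), 7 rose and 2 fell, with a median of 0.46. Beside EGR2, the largest rises were in CSF1, the macrophage growth factor, from 5 and 8 reads to 66 and 71 (log2 fold change 3.49, SE 0.32), and in the cell cycle inhibitor CDKN1A (1.16, SE 0.06), and ID1 and IRF8 fell. Of 7 tested MYB targets (8 listed), 5 fell and 2 rose, with a median of -1.01. The cyclin genes CCNA1, CCNB1 and CCNE1 fell by 2.23, 1.69 and 1.39 on the log2 scale, while ADA, an enzyme of purine breakdown, rose by 3.36 (SE 0.06) and the receptor gene KIT by 0.94 (SE 0.08). Of 5 tested mast cell, basophil and megakaryocyte genes (11 listed), 3 rose and 2 fell, with a median of 0.94. GP1BA, a platelet adhesion receptor, had 1 read under DMSO and 201 under CU-T12-9, a ratio of 218 (95% interval 38.8 to 8670), and TPSB2, a tryptase that shares sequence with other tryptase genes and is uncertain to that extent, went from 6 and 1 reads to 25 and 26, with a log2 fold change of 2.94 that was 4.55 without the first DMSO library. MS4A3, of granulocyte and basophil progenitors, fell by 1.74 (SE 0.05). ITGA2B fell by 0.38 (SE 0.14), a call absent in DESeq2 (adjusted p = 0.186) and without either DMSO library or the first CU-T12-9 library (edgeR adjusted p = 0.175, 0.101 and 0.118), in a range of 0.00749 to 1. The lists share KIT, CSF1R, EGR1, EGR2, HOXA9, MEIS1, IRF8, ID1, ID2 and CD34, so their counts are not independent. The myeloid blast markers also share CSF2RA and LYZ with the PU.1 targets and MPO with the granule genes.

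The genes whose profiles lay closest to each member were given by the distance between centred log2 CPM over the 4 libraries, which with 2 conditions mostly finds genes of equal fold change. ZBTB10 lay closest to SPI1 (distance 0.0156, log2 fold change 0.63), GLTSCR2 to CEBPA (0.0252), C11orf49 to CEBPD (0.0349) and SPRYD7 to CEBPB (0.03). CHURC1 lay closest to RUNX1 (0.00999, log2 fold change 0.41), MCCC2 to GFI1 (0.0062) and CHD1L to MYB (0.0197, log2 fold change -0.39). GAPDH, a glycolytic enzyme gene often taken as a reference, lay closest to GATA2 (0.0138), falling by 0.65 on the log2 scale. No gene lay close to CEBPE, with GMFB nearest at 0.466.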

How the data were processed

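RNA of MV4;11 cells was measured in 4 libraries, 2 per group. The authors deposited these as raw read counts by gene symbol in 1 table, which has no summary rows and no column of another sample. Per the submitters' processing notes the tools were FastQC 0.11.7, TopHat2 (given as version 2.9.13) and featureCounts 1.5.2, with genome GRCh37. No source used here gives the annotation, the strand setting or the treatment of reads that map to several places. The reference at hand is of GRCh38 and served for sequences and exon lengths only.

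In R 4.3.3 edgeR 4.0.16 (glmQLFit and glmQLFTest) was fitted with group as the only term, after filterByExpr (14018 genes kept) and TMM scaling. P-values were adjusted by Benjamini-Hochberg across the 14018 genes and called at 0.05. The standard error of a log2 fold change is its size divided by the square root of F. The scripts were tested on simulated data with known changes. Alternatives used RLE, upper quartile or total-count scaling, DESeq2 1.42.0, limma-voom (limma 3.58.1), other filters, glmTreat against a fold of 1.5, a replicate block and each library left out.

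The members and lists were chosen with earlier results of these data known. From each further list the text names up to 3 called genes with the largest rises and 3 with the largest falls, reaching a mean of 1 CPM in a group, and CBFB. A few results that this rule would name are not reported here. The read ratios and other genes named beside these (TAL1, ERG, LTF, LCN2, CAMP, MMP8, CD14, HDAC1, RCOR1, SIN3A, PAX5, CD22, CEBPG and the relatives without reads) were chosen after their values were seen. For each member the nearest profiles were sought among 9893 genes whose mean reached 5 CPM, leaving out clone and locus names.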

Additional observations from a re-analysis of the deposited data

How the results depend on the processing

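Of 117 comparisons of the 9 members with their values under the alternatives, 102 kept direction and side of the threshold. The single reversal was CEBPE without the first CU-T12-9 library (log2 fold change 0.23, against -1.24 and a call without the second). Scaling by RLE, upper quartile or total counts changed no member's call. Against a fold of 1.5 the calls higher and lower were 1761 and 1688 over all genes, 0 and 0 for members, 2 and 2 for relatives, 4 and 0 for partners, 6 and 1 for monocyte and dendritic cell factors, 2 and 5 for stem cell factors, 9 and 1 for PU.1 targets, 2 and 9 for granule genes, 3 and 1 for genes repressed by GFI1, 2 and 5 for MYB targets and 3 and 1 for GATA-linked genes. DESeq2 called 5 members higher and 1 lower (MYB), 9 monocyte and dendritic cell factors higher and 2 lower, and 3 GATA-linked genes higher and 1 lower. With 1 library left out, 4 to 6 members were higher and 2 to 3 lower, 3 to 5 monocyte and dendritic cell factors were lower and 1 to 2 GATA-linked genes were lower. The remaining lone library is then assumed to vary like the other group.

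Same-numbered libraries did not deviate together (correlation across genes 0.00795), so the numbers were not taken to pair them. With a replicate block 6 members were higher and 2 lower, CEBPB being called (log2 fold change 0.18, edgeR adjusted p = 0.0483), and the calls over all genes were 4488 higher and 4655 lower. CEBPE and GATA2 had the fewest reads of the members, 11 to 32 and 56 to 101 per library, and the largest standard errors, 0.42 and 0.17 in log2.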
